A study of Mus musculus with 4 samples.

Results

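The genes described here encode the transforming growth factor beta (TGF-beta), bone morphogenetic protein (BMP) and activin ligands with their binding proteins, receptors, SMAD transducers and inhibitors. They were chosen by symbol, as the Tgfb, Tgfbr, Bmp, Bmpr, Smad, Inhb, Acvr, Gdf, Ltbp and Grem names together with Chrd, Fst, Fstl1, Fstl3, Smurf1, Smurf2, Ski, Skil and Bambi. This took 49 of the 15424 genes in the deposited table. Nog is also in the list of names and was not analysed here.

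TGF-beta ligands are secreted in a latent form, bound to latent TGF-beta binding proteins that anchor them in the extracellular matrix until they are released. Free ligands of the family bring type I and type II receptor kinases together, and the type I kinase phosphorylates SMAD2 and SMAD3 (TGF-beta and activin) or SMAD1, SMAD5 and SMAD9 (BMP), which enter the nucleus with SMAD4. Secreted antagonists, inhibitory SMADs, ubiquitin ligases and the corepressors SKI and SnoN restrain the signal, and in tumors the pathway is best known for its effects on matrix, stromal cells and cell growth arrest.

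RNA came from tumors grown under the skin of nude mice from transplanted R728T1 cells, which derive from a mouse model of Rb and P53 and which the labels call non-SMCs without spelling that out. In the control group the shRNA targets luciferase (shLuc), in the knockdown group Taz (shTaz), and the labels list 2 samples for each. The labels state neither the shRNA sequence, nor whether the lines are clones, nor the age of the mice. Nude mice lack mature T cells but keep other host cells, and graft and host are both mouse, so their RNA cannot be separated by species.

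The table gives fragment counts scaled to transcript length and library size (FPKM), with 1 value for each group and none for each sample. There is therefore no spread between replicates, no difference below has a replicate check, and no test was run. The difference of a gene is the log2 of (shTaz FPKM + 1) over (shLuc FPKM + 1), computed where the columns averaged 1 FPKM or more. A difference of 1 on that scale is called 2-fold. Some differences are also given after their trend with transcript GC content, or with GC content and length (both trends), was removed across all genes. FPKM is scaled to length, so levels of different genes are set side by side within a column. It is not scaled to GC content, so such comparisons are approximate where transcripts differ in GC content.

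Wwtr1, the gene of the Hippo pathway coactivator TAZ, was at 23.4 FPKM in shLuc and 15.1 FPKM in shTaz. The symbol Taz in the table belongs to the mitochondrial enzyme tafazzin (13.7 and 9.50 FPKM). The labelled cell type is small cell lung cancer. Of 10 markers of it and of neuroendocrine cells 4 could be read: Ncam1 was at 39.8 and 43.8 FPKM and Uchl1 at 10.1 and 1.51 FPKM, while the defining markers Syp and Insm1 were under 1 FPKM in both columns, Insm1 at 0 in shTaz. The others were not analysed here. The 8 fibroblast markers summed to 2136 FPKM in shLuc and 1372 FPKM in shTaz, with 7 lower and none at 0. Of the 7, 4 were 2-fold lower and Col3a1 (372 and 371 FPKM) was nearly equal, while Pdgfra (8.75 and 13.5 FPKM) was higher. Col1a1, Col1a2 and Col3a1 made up most of both sums and are also among the TGF-beta target genes below. The 8 endothelial markers summed to 133 and 88.6 FPKM, with 5 lower and 3 higher; Plvap (67.2 and 36.2 FPKM) led the sum, while Pecam1 (11.5 and 10.8 FPKM) and Cdh5 (16.1 and 15.0 FPKM) were nearly equal. The 7 pericyte and smooth muscle markers summed to 96.0 and 69.2 FPKM, with 5 lower, 2 higher and none at 0. The 9 measured macrophage markers had the highest sums, 4204 and 3668 FPKM, with 4 higher, 5 lower and none 2-fold different. The 7 neutrophil markers summed to 6.61 and 56.0 FPKM, with 4 higher, 3 lower and 2 at 0 in each column. S100a9 (0.810 and 29.2 FPKM) and S100a8 (0 and 18.6 FPKM) made up most of the shTaz sum. All of the 6 skeletal muscle markers were higher, with sums of 2.79 and 31.1 FPKM and 2 at 0 in shLuc. Their part in the results below was not tested, and in these bulk samples fewer cells of a type and less RNA per cell cannot be told apart.

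Of the 49 genes, 39 averaged 1 FPKM or more. Among these, 4 differed 2-fold, or 10.3%, against 7.21% of all 11650 genes that passed the same filter, so the number of large differences was near the background. Grem1 and Bmpr1b were higher in shTaz, and Inhba and Gdf1 were lower. The median difference of the 39 genes was 0.26 and that of all genes was 0.12. By role, all 9 receptor genes and all 5 measured SMADs that carry the signal above the filter were equal or higher in shTaz, while 6 of 8 ligands above it were lower. Against all genes, 7 of the 9 receptors and 4 of the 5 SMADs lay above the median of 0.12, and 6 of the 8 ligands lay below it.

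**Figure D1:**
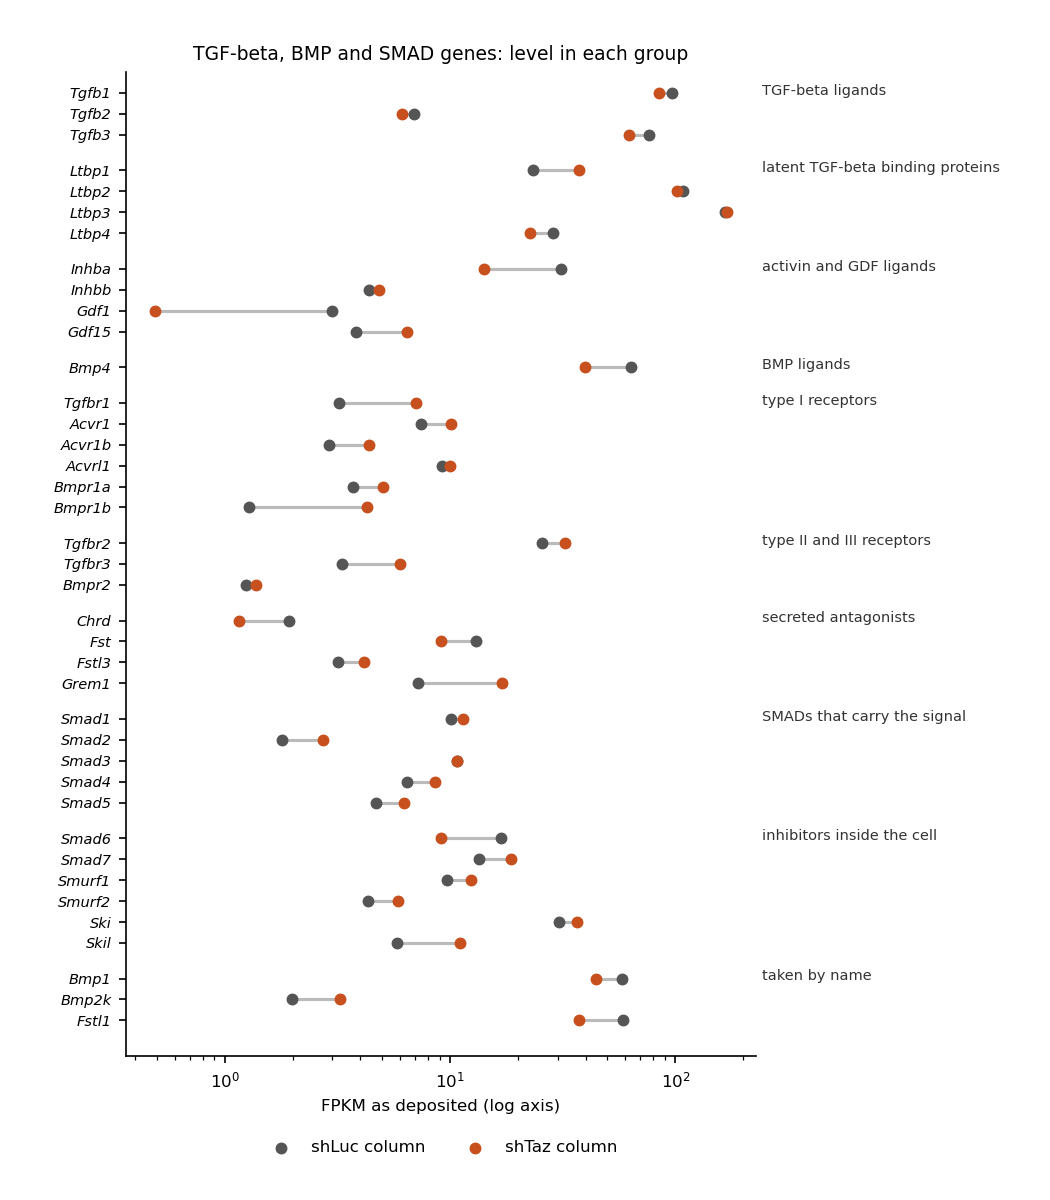
FPKM of the 39 genes that averaged 1 FPKM or more, on a log axis, in the shLuc column (grey) and the shTaz column (orange), grouped by role; each point is the 1 deposited value of a group. The longest connecting lines belong to Gdf1, Bmpr1b, Grem1, Inhba and Tgfbr1, and Ltbp3 and Tgfb1 are among the highest levels.

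The TGF-beta ligands were expressed at high levels in both groups and were slightly lower in shTaz, except that Tgfb1 was equal after quantile normalization (0.0046). Tgfb1, the most widely expressed isoform, was at 96.7 FPKM in shLuc and 84.9 FPKM in shTaz. Tgfb3 was nearly as high, at 76.1 and 62.1 FPKM, and Tgfb2 was low, at 6.92 and 6.10 FPKM. The differences of Tgfb1, Tgfb2 and Tgfb3 were -0.19, -0.16 and -0.29. The mix of isoforms was almost the same in the groups. Tgfb1 made up 53.8% of the summed FPKM of the 3 ligands in shLuc and 55.5% in shTaz, and Tgfb3 made up 42.3% and 40.6%. Tgfb3 overlaps the oppositely transcribed gene Ttll5 (2.84 and 3.41 FPKM), and whether the authors' counting used strand is not given in the sources used here.

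The latent binding proteins included the highest levels of all 49 genes. Ltbp3 was at 167 and 170.2 FPKM and Ltbp2, which binds fibrillin rather than latent TGF-beta, at 108 and 102 FPKM, which is 102% and 94.2% of the control level. Ltbp1, a carrier of latent TGF-beta in matrix, was at 23.2 FPKM in shLuc and 37.6 FPKM in shTaz, a difference of 0.67. Ltbp4, found in elastic fibres, was at 28.8 and 22.7 FPKM, a difference of -0.33 that turned to 0.14 with the trend in GC content removed and to 0.058 with GC and length removed. The ratio of Ltbp1 to Ltbp4 was 0.808 in shLuc and 1.66 in shTaz, so the rank of this pair was exchanged between the groups. Their transcripts differ in GC content, 52.7% for Ltbp1 and 62.2% for Ltbp4, and with the GC trend or both trends removed all 4 genes had a difference above 0.

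Bmp4 was lower in shTaz and its antagonists were split, with Grem1 higher and Chrd lower. Bmp4 was the 1 BMP ligand above the filter, at 63.5 FPKM in shLuc and 39.9 FPKM in shTaz, a difference of -0.66, and 7.97% of all genes lay lower. Grem1 encodes gremlin, a secreted protein that binds BMP2 and BMP4 and blocks their access to receptors. It was at 7.24 FPKM in shLuc and 17.0 FPKM in shTaz, a difference of 1.13, and 97.6% of all genes lay lower. The FPKM ratio of Grem1 to Bmp4 was 0.114 in shLuc and 0.427 in shTaz, 3.75 times as high, from transcripts of 44.7% and 52.5% GC. Chordin (Chrd), another BMP antagonist, was low and lower in shTaz like Bmp4, at 1.92 and 1.16 FPKM. Nbl1, a more abundant antagonist in the list of others, was lower as well.

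Smad6, which encodes the inhibitory SMAD that acts mainly on BMP receptors and whose transcription BMP signals are known to induce, was at 16.8 FPKM in shLuc and 9.09 FPKM in shTaz, a difference of -0.82. Smad7, the inhibitory SMAD that also acts on TGF-beta receptors, was higher, at 13.5 and 18.7 FPKM. The ratio of Smad6 to Smad7 was 1.25 in shLuc and 0.486 in shTaz, from transcripts of 60.8% and 56.9% GC. Smad6 was thus the higher of the pair in shLuc and the lower in shTaz. Id3, a BMP target gene and no member of the list, showed a difference in the same direction as Smad6 and is shown with its promoter and described with the targets.

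The sequences below are the RefSeq promoter windows of the BMP-related genes Grem1, Bmp4, Smad6 and Id3 named above. The window of Inhba, the activin gene with the lowest difference after correction, is also shown. Each runs 5′ to 3′ on the gene's own strand in GRCm38.p6, the assembly of mm10, from 250 bases before to 50 bases after the transcription start. Capitals mark matches on either strand to GGAATG (the core bound by TEAD, the DNA-binding partner of TAZ), CAGAC (a SMAD box), GTCTAGAC (the SMAD palindrome) or GGCGCC (bound by BMP SMADs). Grem1 lies on the minus strand of chromosome 2 and its window spans chr2:113758599-113758898, Bmp4 is on the minus strand at chr14:46390620-46390919, Smad6 on the minus strand at chr9:64022010-64022309, Id3 on the plus strand at chr4:136143572-136143871 and Inhba on the plus strand at chr13:16011601-16011900.
Grem1: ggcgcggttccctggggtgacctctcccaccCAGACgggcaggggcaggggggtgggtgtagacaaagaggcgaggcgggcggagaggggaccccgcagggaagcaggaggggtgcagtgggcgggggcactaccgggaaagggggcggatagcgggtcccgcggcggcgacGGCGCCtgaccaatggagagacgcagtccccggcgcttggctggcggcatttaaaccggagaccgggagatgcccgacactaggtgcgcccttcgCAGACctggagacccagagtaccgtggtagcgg
Bmp4: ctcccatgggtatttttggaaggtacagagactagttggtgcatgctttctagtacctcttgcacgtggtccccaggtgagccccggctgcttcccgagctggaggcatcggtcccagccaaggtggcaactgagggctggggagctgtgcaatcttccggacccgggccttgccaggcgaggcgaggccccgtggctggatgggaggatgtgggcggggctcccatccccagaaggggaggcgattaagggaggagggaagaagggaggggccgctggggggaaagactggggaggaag
Smad6: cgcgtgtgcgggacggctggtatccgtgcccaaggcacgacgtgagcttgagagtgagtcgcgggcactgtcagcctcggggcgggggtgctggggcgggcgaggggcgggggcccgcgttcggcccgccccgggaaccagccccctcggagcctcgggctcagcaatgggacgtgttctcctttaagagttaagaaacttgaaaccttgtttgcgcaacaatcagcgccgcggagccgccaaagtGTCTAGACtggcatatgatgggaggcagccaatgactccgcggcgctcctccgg
Id3: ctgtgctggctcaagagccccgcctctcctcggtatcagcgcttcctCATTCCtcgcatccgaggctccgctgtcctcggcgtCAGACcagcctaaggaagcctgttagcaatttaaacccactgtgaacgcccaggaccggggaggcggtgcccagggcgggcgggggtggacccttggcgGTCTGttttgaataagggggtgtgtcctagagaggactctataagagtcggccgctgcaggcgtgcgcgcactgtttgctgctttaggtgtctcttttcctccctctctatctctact
Inhba: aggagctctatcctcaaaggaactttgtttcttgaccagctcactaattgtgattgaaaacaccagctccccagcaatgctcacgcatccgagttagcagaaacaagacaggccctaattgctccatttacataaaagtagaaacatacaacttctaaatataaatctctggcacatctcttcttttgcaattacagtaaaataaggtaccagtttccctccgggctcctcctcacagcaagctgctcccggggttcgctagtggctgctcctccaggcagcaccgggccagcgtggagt

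The Grem1 window holds CAGAC at 219 bases before the start and 18 bases into the transcript, and GGCGCC at 78 bases before it. The Smad6 window holds the SMAD palindrome, beginning 4 bases before the start, and it was the 1 window of the 49 genes with it, against 0.213% of all 32851 windows. The Id3 window holds the TEAD core on the opposite strand and 2 SMAD boxes. The Bmp4 and Inhba windows hold none of these letters. Windows were found for 34 of the 49 genes, 44 windows in all. GGAATG was in 2 of them, those of Gdf1 and Gdf15, or 4.55% against 14.7% of all windows, CAGAC in 47.7% against 49.6%, and GGCGCC in 34.1% against 11.9%. The windows of these genes were also richer in GC, with a median of 66.5% against 52.7%. Matches describe the letters in these windows and are not evidence of binding.

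The activin genes were led by a lower level of Inhba in shTaz. Inhba encodes the beta A subunit, which pairs to form activin A, and was at 31.1 FPKM in shLuc and 14.1 FPKM in shTaz, a difference of -1.09, with 2.72% of all genes lower. Inhbb, the beta B subunit, was at 4.36 and 4.83 FPKM. Inhba was thus 7.14 times Inhbb in shLuc and 2.92 times in shTaz, from transcripts of 41.4% and 60.9% GC. Follistatin (Fst), which binds and neutralizes activins, was also lower, at 13.0 and 9.08 FPKM, and the ratio of Inhba to Fst was 2.39 and 1.55. Fstl3, a follistatin relative that also binds activins, was at 3.18 and 4.13 FPKM. Inha, the alpha subunit that turns the dimer into inhibin and stands in the list of other ligands, was at 4.90 and 1.29 FPKM. Both Inhba and Inha were lower by more than 2-fold, while Inhbb was nearly equal, and with GC and length trends removed Inhba was still past 2-fold and Inha was not (-0.87).

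The growth differentiation factors (GDFs) were low. Gdf15, a secreted factor induced by cell stress, was at 3.82 FPKM in shLuc and 6.42 FPKM in shTaz. Gdf1, a nodal-related factor, was at 2.98 and 0.488 FPKM, a difference of -1.42. Gdf1 shares an upstream promoter with Cers1, listed as Lass1, and lies on chromosome 8 beside the oppositely transcribed gene Upf1, with which it overlaps, so its reads are uncertain. Lass1 was at 0.347 and 0.927 FPKM, opposite to Gdf1, and Upf1 was nearly equal, at 23.7 and 24.0 FPKM.

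Type I receptors, the kinases that phosphorylate SMADs, were higher in shTaz for all 6 genes, where 58.3% of all genes were higher. Of the 6, 1 was 2-fold higher (16.7%, against 3.96% of all genes). Bmpr1b, a BMP receptor, was at 1.28 FPKM in shLuc and 4.27 FPKM in shTaz, a difference of 1.21, and 98.3% of all genes lay lower. Tgfbr1, the type I receptor of TGF-beta, was at 3.22 and 7.07 FPKM, a difference of 0.93 that falls short of 2-fold on the scale with 1 FPKM added. Acvr1b, an activin receptor, was at 2.89 and 4.35 FPKM. The other BMP receptors of this kind showed smaller differences. Acvr1 was at 7.46 and 10.1 FPKM and Bmpr1a at 3.72 and 5.04 FPKM. Acvrl1, the receptor of endothelial cells, was at 9.20 and 9.99 FPKM, a difference of 0.11, while the endothelial markers were lower in sum. Bmpr1b made up 4.60% of the summed FPKM of the 6 type I receptors in shLuc and 10.5% in shTaz, and Tgfbr1 made up 11.6% and 17.3%.

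Of the receptors that bind ligand first, Tgfbr2 was the highest, at 25.5 FPKM in shLuc and 32.5 FPKM in shTaz. Tgfbr3, or betaglycan, a coreceptor that presents TGF-beta, was at 3.32 and 5.98 FPKM, a difference of 0.69. Bmpr2, the type II receptor for BMPs, was nearly equal, at 1.24 and 1.37 FPKM. Tgfbr2 exceeded Tgfbr1 in both groups, but the ratio of Tgfbr1 to Tgfbr2 was 0.126 in shLuc and 0.218 in shTaz, 1.73 times as high. Their transcripts have 41.0% and 49.6% GC, and with both trends removed the differences were 0.33 for Tgfbr1 and 0.10 for Tgfbr2.

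The SMADs that carry the signal differed little. Smad3, the TGF-beta transducer with its own DNA contact, was at 10.8 FPKM in both columns, with a difference of 0.00. Smad1, a BMP transducer, was at 10.1 and 11.4 FPKM, and its relative Smad5 at 4.67 and 6.24 FPKM. Smad2 was the lowest of those measured, at 1.79 and 2.73 FPKM. Smad4, the shared partner, was at 6.47 and 8.57 FPKM. Smad3 exceeded Smad2 by 6.01 times in shLuc and 3.94 times in shTaz, from transcripts of 53.1% and 44.9% GC. By FPKM, the TGF-beta transducer transcripts were thus mainly Smad3 in both groups.

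Inhibitors inside the cell were higher in shTaz for 5 of 6 genes, with Smad6 the exception, where 58.3% of all genes were higher. With both trends removed 4 of the 6 were above 0. None passed 2-fold, against 7.21% of all genes. Skil encodes SnoN, a corepressor of SMADs that TGF-beta itself induces, and was at 5.82 FPKM in shLuc and 11.0 FPKM in shTaz, a difference of 0.82. Its relative Ski was more abundant, at 30.6 and 36.8 FPKM. The ubiquitin ligases Smurf1 and Smurf2, which mark SMADs and receptors for breakdown, were at 9.73 and 12.4 FPKM and at 4.34 and 5.89 FPKM. Smad7, which recruits these ligases to the receptor, differed by 0.44, beside their 0.32 and 0.37. With both trends removed the differences were 0.59 for Smad7, 0.37 for Smurf1 and -0.022 for Smurf2.

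A few genes share only a name or a structure with the family. Bmp1 is a protease that processes procollagen, not a ligand, and was at 58.2 FPKM in shLuc and 44.4 FPKM in shTaz. Fstl1, a secreted glycoprotein of mesenchymal cells, was at 58.8 and 37.4 FPKM, a difference of -0.64. Bmp2k, a protein kinase, was at 1.98 and 3.24 FPKM. Bmp1 and Fstl1 were lower alongside the fibroblast marker list given above, as were Bmp4 and Inhba. The part of that cell type in these differences was not tested.

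The 10 remaining genes had a mean under 1 FPKM. They include Gdf3, Gdf5, Gdf9, Gdf11, Bmp2, Acvr2a, Acvr2b, Smad9 and Bambi, and lay at 0 to 0.592 FPKM in shLuc and 0.0922 to 1.43 FPKM in shTaz. Of these, 7 were higher and 3 lower in shTaz. The 5 ligands among them had 4 higher and 1 lower, unlike those above the filter, and the 2 receptors had 1 of each. Gdf9 was listed at 0 in shLuc. Differences at such levels cannot be read without a known depth.

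**Figure D2:**
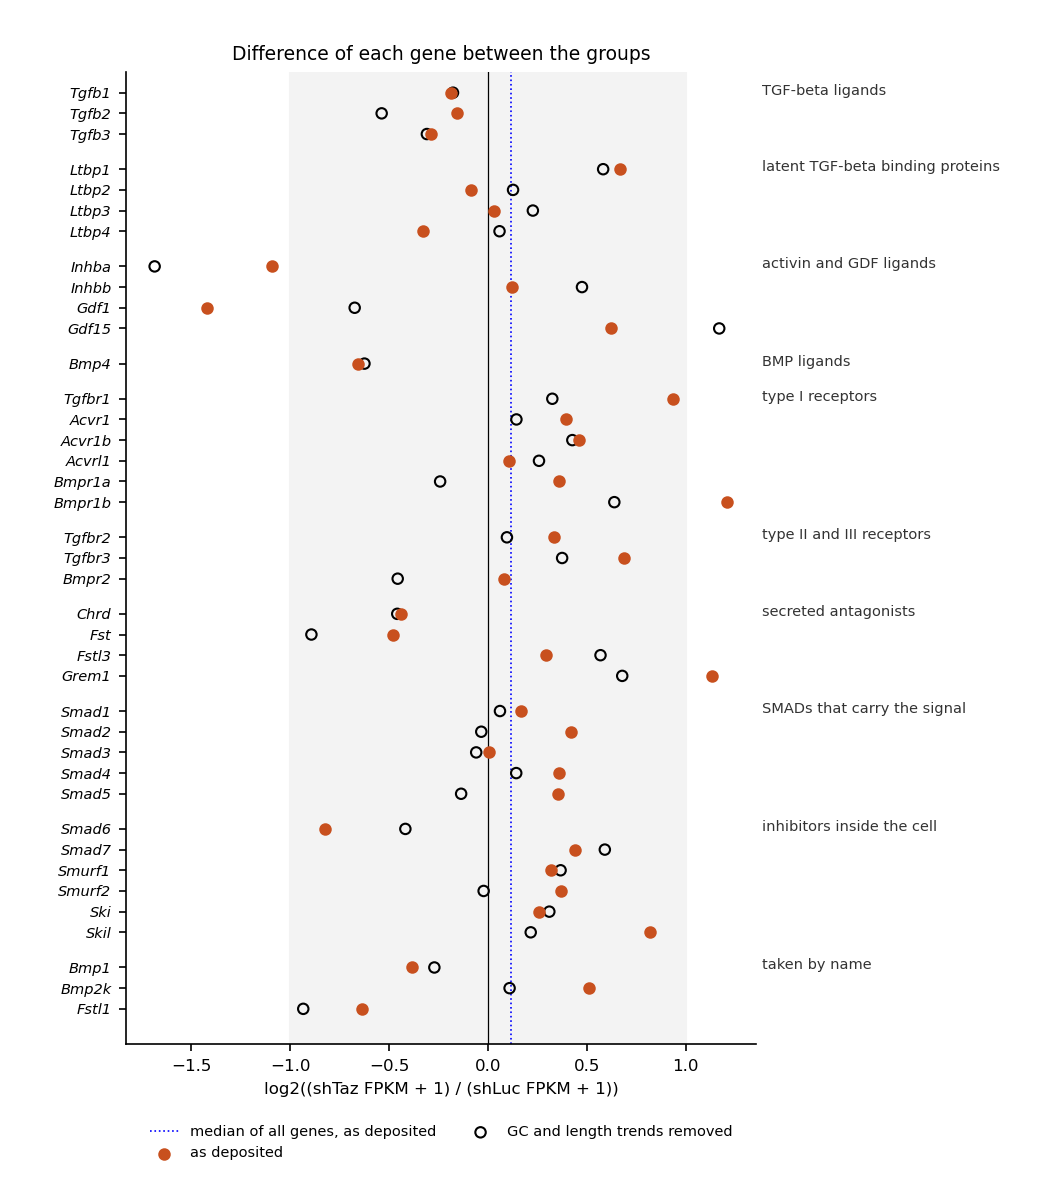
Difference of each of the 39 genes on the log2(FPKM + 1) scale, shTaz minus shLuc, as deposited (filled) and after removal of the trends with GC content and transcript length (open); the grey band marks differences under 2-fold and the dotted line the median of all genes. Bmpr1b and Grem1 move inside the band after correction, Inhba moves further out, and most SMADs lie close to 0.

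The difference between the groups depended on base composition across all genes, and this touches the roles unequally. Over 11084 genes Spearman's rho between the difference and the GC content of the longest transcript was -0.56, and over the 39 genes it was -0.36. Genes share the same pair of columns and are not independent. Receptor transcripts had a median GC content of 48.6%, against 50.2% for all genes. With the GC trend removed, the median of the 9 receptors went from 0.39 to 0.30, with 7 of 9 above 0, and with GC and length removed together it was 0.26. The median of the 5 SMADs went from 0.35 to 0.03 and then to -0.03, and with both removed 3 of the 5 SMADs were below 0. By contrast, 6 of 8 ligands stayed below 0 in both corrections.

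With the GC trend removed 1 gene of the 39 was 2-fold higher (against 1.5% of all genes) and 1 was 2-fold lower (against 3.15% of all genes), so 2 differed 2-fold against a background of 4.65%. With both trends removed the same genes, Gdf15 and Inhba, were past 2-fold, against a background of 4.45%. Single genes shifted in either direction. Inhba, whose transcript is AT-rich with 41.4% GC, had a difference of -1.09 as deposited and -1.69 with both trends removed (2.72% of all genes were then 2-fold lower), and it was 2-fold lower under each of the 8 alternative settings. Grem1 went from 1.13 to 0.68 and Bmpr1b from 1.21 to 0.64, both still higher but under 2-fold. Skil and Tgfbr1, both with 41.0% GC, went from 0.82 to 0.22 and from 0.93 to 0.33. Gdf15, with 61.3% GC, went from 0.62 to 1.17 and was then the 1 gene of the 39 past 2-fold upward, where 1.72% of all genes were. Gdf1 went from -1.42 to -0.67 and Smad6 from -0.82 to -0.42. Bmp4 was almost unmoved, at -0.66 and -0.62, and Ltbp1 too, at 0.67 and 0.58. Follistatin went from -0.48 to -0.89 and Fstl1 from -0.64 to -0.93. In all, 25 of the 39 genes kept the sign of their difference in every alternative that measured them, 15 of them higher and 10 lower, while 14 changed sign at least once, namely Tgfb1, Ltbp2, Ltbp3, Ltbp4, Inhbb, Acvrl1, Bmpr1a, Bmpr2, Smad1, Smad2, Smad3, Smad5, Smurf2 and Ski.

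**Figure D3:**
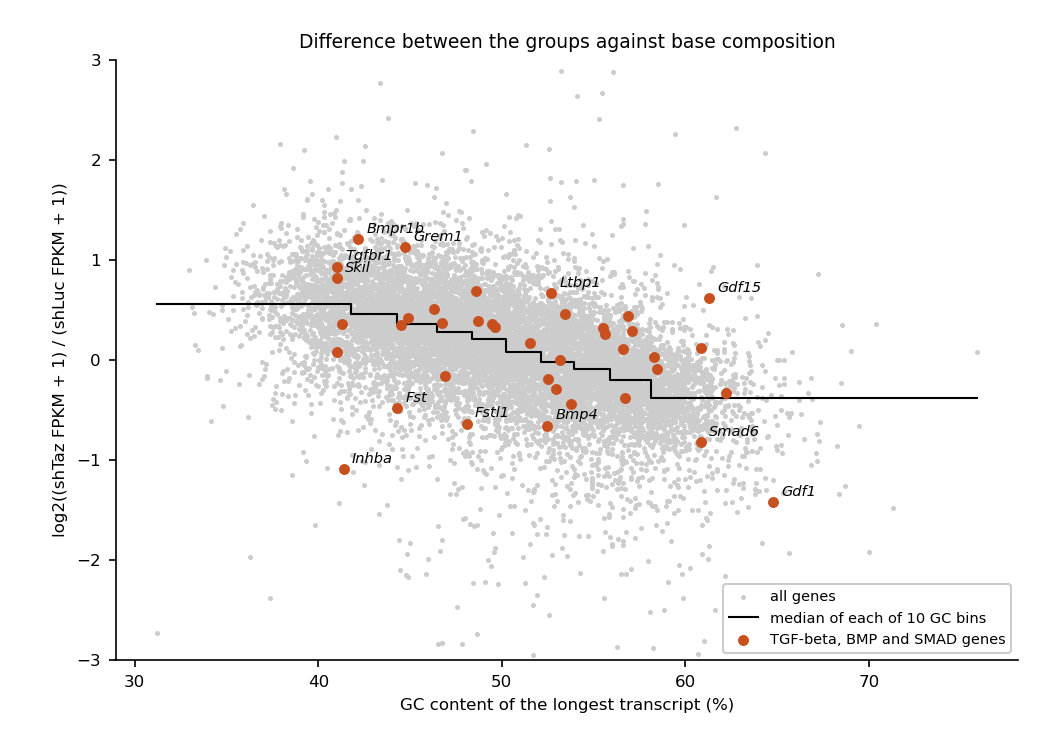
Difference of each gene (shTaz minus shLuc, log2(FPKM + 1) scale) against the GC content of its longest transcript; all genes are grey, the 39 TGF-beta, BMP and SMAD genes orange, and the black line is the median in 10 bins with like numbers of genes. Genes beyond 3 in either direction are not drawn; Inhba lies far below the line at its GC content, while Gdf15 lies above it and Tgfbr1 and Skil lie closer to it.

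Genes that BMP signals are known to induce were lower in part. Of 25 genes in this list 12 passed the filter and 9 lay below it. Of the 12, 4 were 2-fold lower (33.3%, against 3.25% of all genes), none 2-fold higher, and 8 under 2-fold. The median of the 12 was -0.59. This list and those below were chosen with earlier results of these data known, so their shares beside all genes are descriptions only. Id3, an inhibitor of bHLH transcription factors, was at 122 FPKM in shLuc and 36.5 FPKM in shTaz, a difference of -1.72. Its relatives differed far less. Id1 was at 39.7 and 37.4 FPKM and Id2 at 30.6 and 38.2 FPKM, and the ratio of Id3 to Id1 was 3.08 in shLuc and 0.977 in shTaz, from transcripts of 55.6% and 54.7% GC. Atoh8, a bHLH factor, was at 7.60 and 0.923 FPKM. Dlx5, a homeobox factor of bone, was at 9.13 and 2.98 FPKM. Lrg1, a secreted glycoprotein, was at 9.41 and 3.01 FPKM. With both trends removed, Id3 (-1.41), Atoh8 (-1.66) and Dlx5 (-1.12) remained 2-fold lower and Lrg1 (-0.72) did not, and the list median was -0.46. In the same columns Bmp4 and Smad6 were lower and Grem1 and Bmpr1b higher. The fibroblast marker sum was lower too (7 of 8 genes, of which Col3a1 was nearly equal). The endothelial list was split as deposited (5 lower, 3 higher). With both trends removed, 6 of its 7 genes above the filter were below 0, with a median of -0.26. The part of these cells in the target differences was not tested.

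Genes that TGF-beta is known to induce differed in both directions. Of 28 that passed the filter 5 were 2-fold lower (17.9%, against 3.25%), 1 was 2-fold higher (3.57%, against 3.96%) and 22 were under 2-fold, with a median of -0.0023. The lower genes were the matricellular protein periostin (Postn, 35.5 and 8.29 FPKM), the actin-binding protein transgelin (Tagln, 11.1 and 2.82 FPKM), the collagen receptor chain Itga11 (7.50 and 1.84 FPKM) and the matricellular Cyr61 (155 and 60.1 FPKM). Collagen chain Col1a2 (334 and 138 FPKM) was the fifth, and it is also among the fibroblast markers. Other matrix and contractile genes of the list differed in both directions. Col1a1 (1375 and 841 FPKM) and tenascin C (Tnc, 41.6 and 27.7 FPKM) were lower, both under 2-fold. Fibronectin (Fn1, 476 and 679 FPKM) and the collagen crosslinking enzyme Lox (31.2 and 59.0 FPKM) were higher. Col3a1 (372 and 371 FPKM) and calponin (Cnn1, 1.70 and 1.81 FPKM) were nearly equal. Acta2, smooth muscle actin, was at 50.7 and 29.5 FPKM and also stands among the pericyte and smooth muscle markers. Of these 7 markers 5 were lower, 1 by 2-fold, and 2 were higher, both by 2-fold. The part of those cells was not tested. Angptl4, a lipase inhibitor that hypoxia also induces, was the higher gene, at 26.4 and 56.3 FPKM, and its difference of 1.06 became 0.93 with both trends removed.

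**Figure D4:**
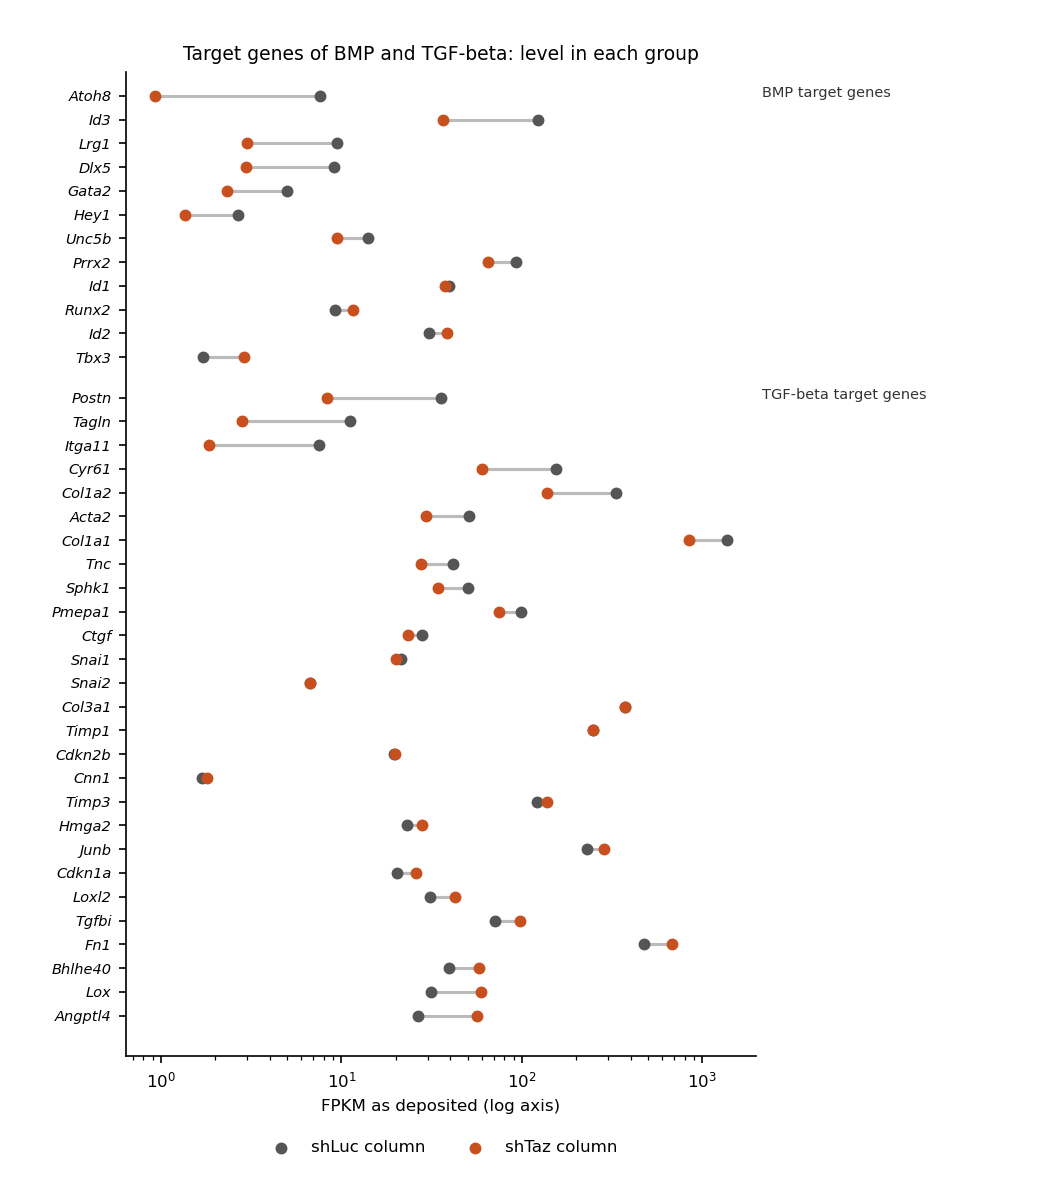
FPKM of measured BMP and TGF-beta target genes, on a log axis, in the shLuc column (grey) and the shTaz column (orange), ordered within each list by their difference; each point is the 1 deposited value of a group. Atoh8 and Id3 head the BMP list and Postn and Tagln the TGF-beta list as the lowest in shTaz, and Id1 is nearly equal.

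In the other lists of the pathway with more than 2 measured genes, the larger shares of 2-fold lower genes were among coreceptors and genes of latency. Of 15 measured genes of TGF-beta latency and activation 2 were 2-fold lower (13.3%, against 3.25% of all genes) and none higher, with a median of -0.0051. Mmp9, a gelatinase that can release latent TGF-beta, was at 125 and 45.0 FPKM, and Lrrc32, or GARP, which tethers latent TGF-beta to cell surfaces, at 4.32 and 1.52 FPKM. With both trends removed Mmp9 was still 2-fold lower (-1.35) and Lrrc32 was not (-0.86). Of 9 coreceptors and ligand-binding proteoglycans 2 were 2-fold lower (22.2%, against 3.25%) and none higher, with a median of -0.31. These were biglycan (Bgn, 1388 and 294 FPKM) and decorin (Dcn, 13.8 and 1.85 FPKM), both small proteoglycans that bind TGF-beta, and Dcn is also among the fibroblast markers. Endoglin (Eng), the endothelial coreceptor, was at 15.7 and 9.47 FPKM. The biglycan and decorin differences stayed past 2-fold with both trends removed.

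Of 6 other secreted antagonists above the filter none was 2-fold different, against 7.21% of all genes, and 3 were higher and 3 lower. A further 5 lay below it, and the list median of 0.03 turned to -0.24 with no filter. Of the 6, Nbl1, a DAN-family BMP antagonist, differed most, at 159 and 84.0 FPKM. Twsg1, twisted gastrulation, followed at 10.3 and 13.8 FPKM. Of 29 SMAD cofactors and regulators none was 2-fold different, against the same 7.21%, 21 were higher and 8 lower, and the median of 0.36 went to 0.03 with the GC trend removed. Atf3, a stress-induced partner of SMAD3, was at 2.54 and 5.69 FPKM, and Stub1, a ubiquitin ligase, at 113 and 61.0 FPKM. Of 12 kinases and adaptors of the routes that bypass SMADs 1 was 2-fold higher (8.33%, against 3.96% of all genes) and none lower. That gene was Map2k6, which activates p38, at 1.59 and 6.07 FPKM, a difference of 1.45 and 1.20 with both trends removed. Of the other ligands of the family 2 of 8 passed the filter, and 1 of these was 2-fold lower (50%, against 3.25% of all genes). That gene was Inha, given above. The other was Dand5, an antagonist of nodal, at 2.62 and 2.56 FPKM.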

How the data were processed

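The authors deposited FPKM values for 15424 genes, in 1 column per group. Each heading matches a label carried by both samples of that group, and how those samples were combined is not given in the sources used here. Per the submitters' processing notes, reads passed through Trim Galore and TopHat with build mm10. Versions, the FPKM program and the annotation are not given in the sources used here. A search for steps of whole reads in low values placed at best 23.1% (shLuc) and 24.5% (shTaz) within 0.1 of a step, where a step set in advance gives 20%, so depth is unknown.

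Differences are on the log2(FPKM + 1) scale without further scaling, for genes whose columns averaged 1 FPKM or more. With 1 value per group no test or standard error was computed. Transcript length and GC content are those of the longest GENCODE M21 transcript, found for 95.1% of these genes, and trends were removed by lowess (statsmodels 0.14.6, span 0.3), a step tested on simulated data. As alternatives, 0.1 replaced 1 as pseudocount, the minimum average was dropped or set to 5 FPKM, columns were rescaled by the median ratio or quantile-normalized, and trends with GC, length or both were taken out. The 49 genes and the 8 pathway lists were chosen with earlier results of these data known. Every member above the filter could be named, and of each list those past 2-fold or else those that differed most. Roles were assigned from general knowledge. Other list genes named (Id1, Id2, Eng, Fn1, Lox, Col1a1, Col3a1, Tnc, Cnn1, Acta2) and single marker genes were picked with their values in view. A few genes counted in the lists are not reported here by name.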

Additional observations from a re-analysis of the deposited data

How the results depend on the processing

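No paired analysis was possible because the table holds 1 column per group and no column for a replicate, and for the same reason no replicate could be left out. The 4 genes of the family past 2-fold became 2 with a minimum average of 5 FPKM (1 higher, 1 lower), with GC removed (1 and 1), with GC and length removed (1 and 1) and with length removed (0 higher, 2 lower). Inhba was among them in each of these settings. The median of the family, 0.26, was 0.14 with a minimum average of 5 FPKM, 0.13 with median-ratio scaling, 0.14 after quantile normalization, -0.022 without the length trend and 0.10 without either trend. The median of all genes, 0.12, fell in the same settings as well. In that order it was 0.031, 3.4e-05, 0.022, -0.0031 and 0.0029. The median of the SMADs turned to -0.034 with both trends removed.

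List medians moved as follows. For latency and activation (-0.0051) the values were 0.037 with no filter and with a minimum average of 5 FPKM, 0.017 with quantile normalization, -0.15 with the GC trend, -0.25 with the length trend and -0.17 with both removed. For the other ligands (-0.69), over 2 to 4 genes, they were -0.94 with a pseudocount of 0.1, -0.27 with no filter, -0.88 with quantile normalization, and -0.45, -0.58 and -0.33 with the GC, length and both trends removed. For coreceptors (-0.31) they were -0.44 with either scaling, -0.53 with the length trend and -0.20 with both removed. The other antagonists (0.03) turned to -0.24 with no filter, -0.086 with a minimum average of 5 FPKM, -0.10 with median-ratio scaling, -0.075 with quantile normalization, -0.13 with the length trend and -0.026 with both removed. SMAD cofactors (0.36) were at 0.25 with median-ratio scaling, 0.23 with quantile normalization, 0.030, 0.14 and -0.038 with the GC, length and both trends removed. Kinases (0.31) were at 0.074 with a minimum average of 5 FPKM, 0.15 with quantile normalization, and 0.10, 0.17 and 0.0082 with the trends removed in that order. TGF-beta targets (-0.0023) were at -0.13 with median-ratio scaling and -0.12 with both trends removed. BMP targets (-0.59) stayed below 0 at -0.75 with a pseudocount of 0.1, -0.69 and -0.72 with median-ratio scaling and quantile normalization, and -0.39, -0.75 and -0.46 with the GC, length and both trends removed. The cause of these shifts was not tested. With depth unknown, no precision can be given for any value.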
